A study of Drosophila melanogaster with 4 samples.

Results

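The NK homeobox gene cluster at 93DE was described as a stretch of chromosome arm 3R from 17180000 to 17480000 on FlyBase release 5. Its members were the regions with a deposited score above 0 that overlapped this 300 kb window. The rule gave 23 of 5694 enriched regions in replicate 1, 22 of 5709 in replicate 2 and 23 of 6474 in the authors' combined list of the replicate set. Enriched regions are called clusters below. The rule used position and the sign of the score, and neither the size of the scores nor the widths, gaps and replicate overlap.

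The window is named for 5 genes of homeodomain transcription factors. tinman (tin) is needed for the heart and the dorsal mesoderm, and bagpipe (bap), which acts downstream of tin, for the visceral mesoderm that forms gut muscle. The ladybird genes lbl and lbe give identity to subsets of heart and muscle precursors, and C15, also called clawless, is known for patterning the leg tip. GAGA factor (GAF), the protein immunoprecipitated here, is encoded by Trl, binds GA-rich DNA and helps to keep promoters free of nucleosomes. It has also been linked to Polycomb response elements.

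Chromatin was taken from whole fly embryos (Drosophila melanogaster, strain Oregon-R, wild type) 14 to 16 hours old. There were 2 GAF ChIP libraries, numbered replicate 1 and replicate 2, and 2 input libraries sequenced without immunoprecipitation, which were not analysed here. Since whole embryos were used, the cell types that carried each cluster are not recorded, and binding in more cells cannot be told apart from more binding per cell. Nothing in the labels ties the replicates to different collections of embryos, and the spread between these 2 libraries may be technical. Each region carries a score set by the authors on a scale that is not stated, and it is given only as a level, a rank or a difference.

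All 5 genes were found on 3R in the RefSeq gene table, which is of release 6 and was used only for names and order. In it, tin follows mod(mdg4) and is followed by bap, then by 4 protein-coding genes (Ugt49B2, CG7907, CheB93a and CheB93b), and then by lbl and lbe. Fancm stands between lbe and C15. Beyond C15 come sp3, slou (the NK gene also known as S59, a muscle identity gene), CG15498, the insulin receptor gene InR and the cell cycle regulator gene E2f1. Positions were not carried between the releases, and clusters were therefore tied to no gene. Clusters of the window need not belong to the 5 homeobox genes.

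GAF clusters were packed more closely in the window than over the rest of 3R. The window held 75.0 ± 2.4 clusters per Mb, against 46.0 ± 0.67 per Mb over the rest of the arm (mean ± SD, n = 2 replicates). They covered 26.3% ± 0.31 of the window, against 12.4% ± 0.20 of the rest of the arm (n = 2). The combined list gave 76.7 clusters per Mb and 27.2% covered in the window, against 51.2 per Mb and 13.7% elsewhere. In both quantities the gap between window and arm exceeded the spread between the replicates, which does not measure how stretches of the arm vary. No test was made, because neighbouring regions of 1 list are not replicates.

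Tiles of 300 kb laid along 3R from the window placed these values. In replicate 1 the window's 23 clusters exceeded the count of 88 of the other 91 tiles, which had a median of 14 and reached 24. Its 22 clusters in replicate 2 exceeded 85 of 91 tiles (median 14, highest 26), and its 23 in the combined list exceeded 83 of 91 (median 16, highest 29). For covered length the window stood above all 91 other tiles in each list. It had 79.4 kb in replicate 1 and 78.1 kb in replicate 2, and 81.6 kb in the combined list, against highest values of 77.0, 76.2 and 81.0 kb among the other tiles.

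That place at the top depended on where the tiles began. Among 2701 stretches of 300 kb clear of the window, taken in steps of 10 kb, replicate 1 had 34, replicate 2 had 37 and the combined list had 46 with at least the window's covered length. The highest of these reached 97.0, 91.6 and 96.9 kb. Neighbouring stretches overlap, so the counts are not of separate places. Without its own widest cluster the window covered 65.6 kb in the combined list and lay above 84 of the 91 tiles, which kept theirs. In replicates 1 and 2 it then lay above 87 and 85 of them. Both checks were chosen after the values were seen.

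**Figure D1:**
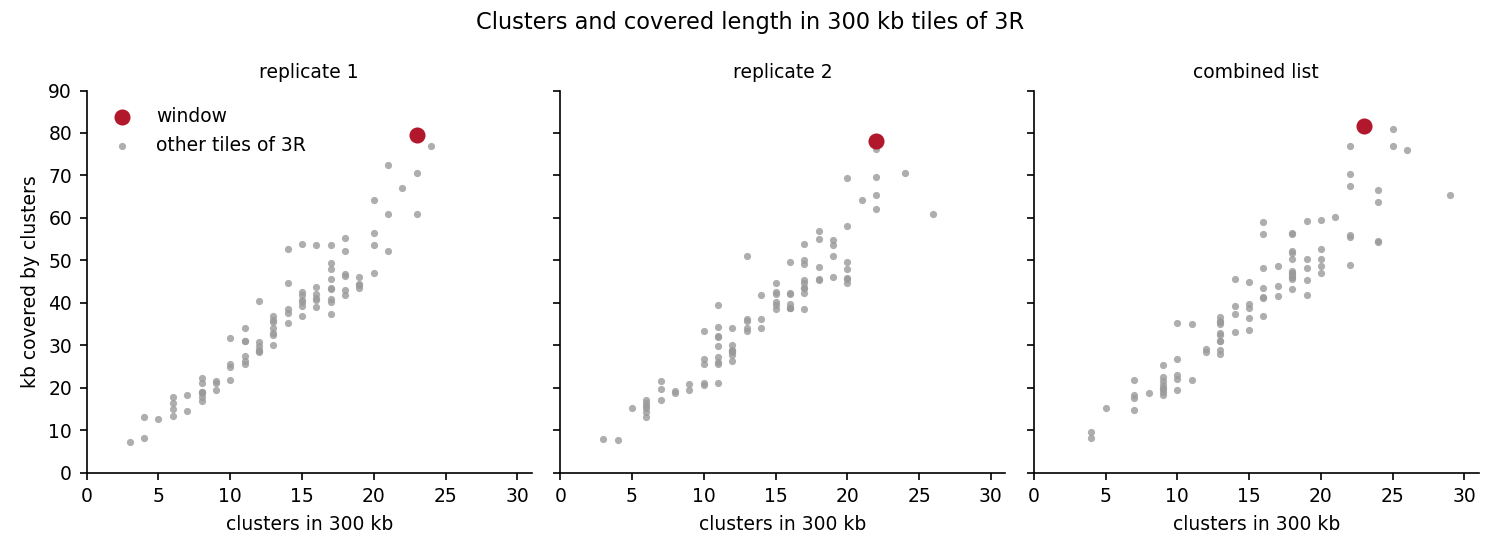
Number of clusters (x axis) against the length they cover in kb (y axis) in 300 kb tiles of 3R, for each replicate and the combined list. The window (large point) lies at 22 to 23 clusters and 78.1 to 81.6 kb, above the other 91 tiles (small points) in covered length but not in number.

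The crowding was uneven within the window. The last 100 kb held 13 clusters in replicate 1 and in the combined list, divided differently as given below, and 12 in replicate 2. Clusters covered 55.5 kb of it in replicate 1, 54.4 kb in replicate 2 and 57.0 kb by the combined list. All 275 other tiles of 100 kb on 3R had less covered length, at most 48.0 kb in replicate 1, 48.7 kb in replicate 2 and 50.8 kb by the combined list. Overlapping stretches of 100 kb clear of the window were also taken in steps of 10 kb, after the values were seen. Of 2741, each replicate had 4 and the combined list had 3 with at least as much covered length. These need not be separate places. The highest had 61.0 kb in replicate 1, 62.4 kb in replicate 2 and 62.3 kb by the combined list. The first 100 kb, with 6 clusters and 14.4 kb covered in the combined list, lay above 167 of these tiles in covered length. The middle 100 kb, with 4 clusters and 10.2 kb, lay above 111. The high count of the whole window therefore rested on its last part.

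By the median, clusters of the window also followed each other at shorter distances. The median gap from one cluster to the next was 4178 ± 91 bp in the window, against 10174 ± 156 bp over the rest of the arm (mean of the replicate medians ± SD, n = 2). In the combined list the medians were 3836 and 8954 bp. Gaps shorter than 1 kb made up 6 of 22 in replicate 1 and in the combined list, and 4 of 21 in replicate 2. Those of replicate 1 included a gap of 31 bp inside what the other lists had as 1 cluster. Those of the combined list included a gap of 315 bp beside a cluster that neither replicate listed. The share over the rest of 3R was 9.73% in replicate 1, 12.3% in the combined list and 11.0% in replicate 2. The window also held long empty stretches. In the combined list 43.3 kb without a cluster followed the third cluster and 49.8 kb followed the ninth, longer than 90.1% and 92.1% of the gaps elsewhere on 3R. Both stretches were empty in each replicate as well, at 43.3 and 49.9 kb in replicate 1 and at 44.1 and 49.8 kb in replicate 2. Before the tenth combined cluster, gaps of 11.4, 18.8 and 14.8 kb were also longer than the arm's median. The others there were 0.271, 6.73, 3.82 and 3.85 kb. From the tenth cluster on, only the gap of 16.6 kb was longer than that median. The short spacing thus lay mainly in the later part of the window.

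**Figure D2:**
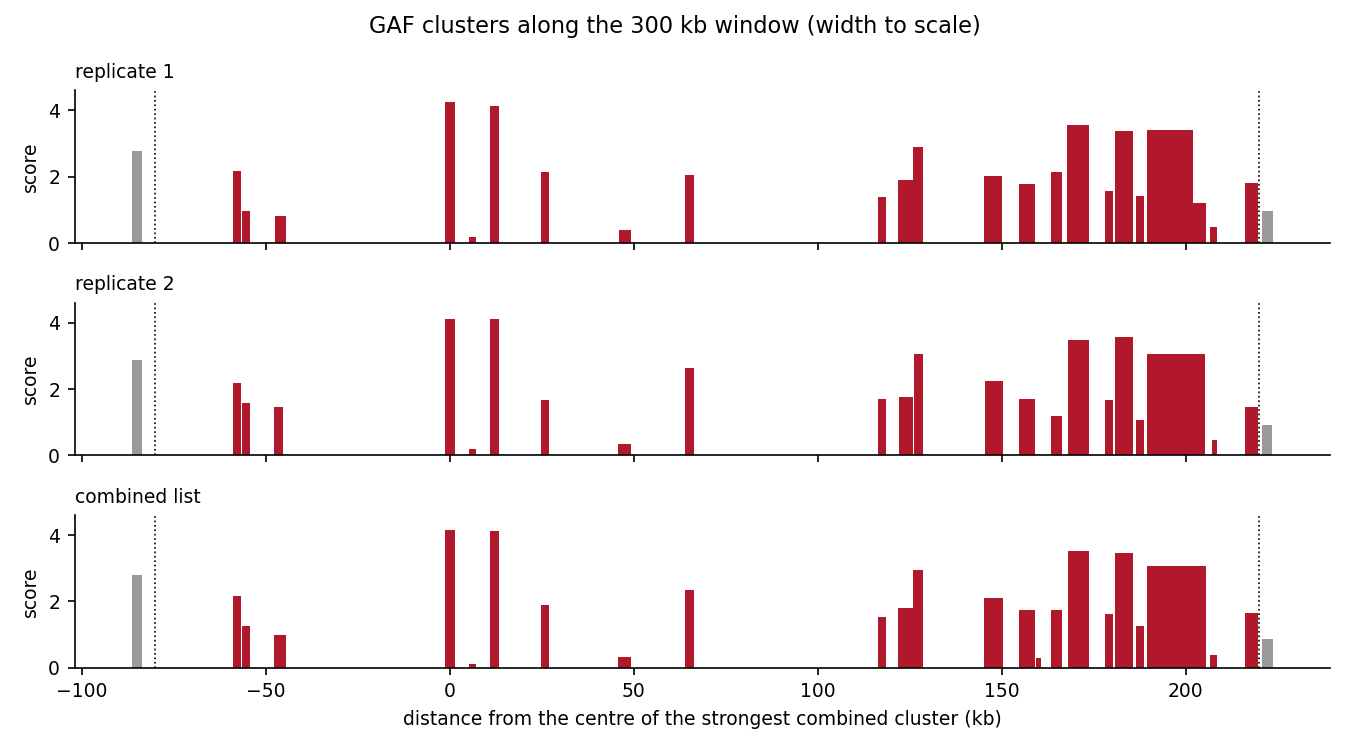
Position (x axis, kb from the centre of the strongest combined cluster) and score (y axis, authors' units) of GAF clusters in replicate 1, replicate 2 and the combined list, with bar width to scale and dotted lines at the window's ends. The last 100 kb is the most crowded, with 12 to 13 clusters against 6 in the first and 4 in the middle 100 kb, and neighbours just outside the window are grey.

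The first 100 kb carried the 2 highest-scoring clusters of the window. The cluster from 17258751 to 17261406 scored 4.17 in the combined list, with 4.24 in replicate 1 and 4.13 in replicate 2 (4.18 ± 0.079, mean ± SD, n = 2). The cluster from 17270958 to 17273411 scored 4.12, with 4.15 and 4.12 in replicates 1 and 2 (4.13 ± 0.021, n = 2). They ranked 18 and 22 by score among the 1437 combined clusters of 3R. The pair differed from each other by less than the spread of the first between replicates.

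Between them lay the weakest member in all 3 lists. The cluster from 17265227 to 17267105 scored 0.109 in the combined list and 0.185 and 0.182 in replicates 1 and 2, higher than 6.08% of the other combined clusters of 3R. The 3 clusters before them were of middling score. The cluster from 17201060 to 17203280 scored 2.17 in the combined list (2.18 and 2.19 in replicates 1 and 2). Only 271 bp on, the cluster from 17203552 to 17205687 scored 1.27 (0.981 and 1.58). The cluster from 17212416 to 17215421 scored 1.00 (0.829 and 1.47). The scores of these last 2 differed between replicates by 0.599 and 0.640, more than in 95.5% and 96.7% of the paired clusters on the rest of the arm.

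In the middle 100 kb the 4 clusters stood apart from one another. The cluster from 17284781 to 17286923 scored 1.91 in the combined list (2.16 and 1.66 in replicates 1 and 2), and the one from 17324046 to 17326534 scored 2.35 (2.07 and 2.62). These lean opposite ways between the replicates. The cluster from 17305756 to 17309197 was weak, at 0.325 (0.393 and 0.349). After the 49.8 kb empty stretch came the cluster from 17376356 to 17378498, at 1.53 (1.40 and 1.70).

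The last 100 kb opened with a close pair. The clusters from 17381987 to 17385896 and from 17386045 to 17388636 were 148 bp apart in the combined list, and scored 1.82 (1.89 and 1.75 in replicates 1 and 2) and 2.96 (2.89 and 3.07). They were separate in both replicates too, by 132 bp in replicate 1 and 251 bp in replicate 2.

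From 17405281 onward no gap exceeded 10 kb as far as 17483682, beyond the window's end. This run of 12 combined clusters over 78.4 kb had 11 in the window, and clusters filled 68.3% of it. On 3R, 669 such runs were formed from the combined list, with a median of 1 cluster. None was longer by cluster number, and 1 other also had 12. The run had 12 clusters in replicate 1, where 1 other had as many, and 11 in replicate 2, where 1 run had more. The counts of 12 did not rest on the same clusters. The combined list's included the cluster from 17419439 to 17420587, which neither replicate listed. Replicate 1's included 2 clusters, parted by 31 bp, where the other lists had 1. The 10 kb limit was chosen after the positions were seen.

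The run joined broad clusters and narrow ones. Broadest was the cluster from 17449478 to 17465441, which was 16.0 kb wide, the second widest combined cluster of 3R, and scored 3.08. Replicate 2 had it as 1 cluster of 15.8 kb scoring 3.07. Replicate 1 had 2 clusters there, of 12.5 and 3.49 kb, scoring 3.42 and 1.22 and parted by 31 bp. The broad enrichment thus recurred, while its division did not.

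Other broad members of the run were the clusters from 17427936 to 17433667, 5.73 kb wide, and from 17405281 to 17410393, 5.11 kb wide. The first scored 3.52 in the combined list (3.57 and 3.48 in replicates 1 and 2; 3.52 ± 0.069, n = 2), and the second 2.09 (2.02 and 2.24). The cluster from 17440906 to 17445842, 4.94 kb wide, scored 3.45 (3.37 and 3.57; 3.47 ± 0.14, n = 2). The first of these 3 differed between replicates by less than the median paired cluster on the rest of 3R, 0.166, and the other two by more. The cluster from 17414664 to 17419123, 4.46 kb wide, scored 1.73 (1.77 and 1.71), and the one from 17476169 to 17479687, 3.52 kb wide, scored 1.65 (1.82 and 1.46).

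The narrower members lay between these. The cluster from 17438032 to 17440366 scored 1.61 (1.57 and 1.68 in replicates 1 and 2), and the one from 17446512 to 17448638 scored 1.27 (1.43 and 1.07). The cluster from 17466633 to 17468640 scored 0.380 (0.490 and 0.458). The cluster from 17423346 to 17426502 was the least steady of the window, with 2.15 in replicate 1 against 1.18 in replicate 2, and a combined score of 1.76. Its difference of 0.968 exceeded that of 99.7% of the paired clusters on the rest of 3R.

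By their medians, members of the window were slightly wider and higher scoring than the clusters of the rest of the arm. The median width was 2587 ± 96 bp, against 2232 ± 6.0 bp (mean of the replicate medians ± SD, n = 2). In the first, middle and last 100 kb the median widths were 2311, 2300 and 3513 bp in replicate 1. In replicate 2 they were 2250, 2315.5 and 3644.5 bp, so the greater width lay mainly in the last part. The median score was 1.80 ± 0.13 in the window and 1.36 ± 0.044 on the rest of 3R (n = 2). In the combined list the median scores were 1.76 and 1.12. By median score the window lay above 69 of the other 91 tiles of 300 kb in replicate 1, above 61 in replicate 2 and above 74 in the combined list. Clusters of at least 5 kb made up 2 of 23 in replicate 1, 3 of 22 in replicate 2 and 3 of 23 among the combined clusters, where the rest of 3R had 5.57%, 5.77% and 6.01%. Scores of at least 3 were reached by 5 of 23, 6 of 22 and 5 of 23 clusters, where the rest of 3R had 15.0%, 14.7% and 12.6%. These counts are small, and 1 cluster more or fewer moves each share by several percentage points.

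**Figure D3:**
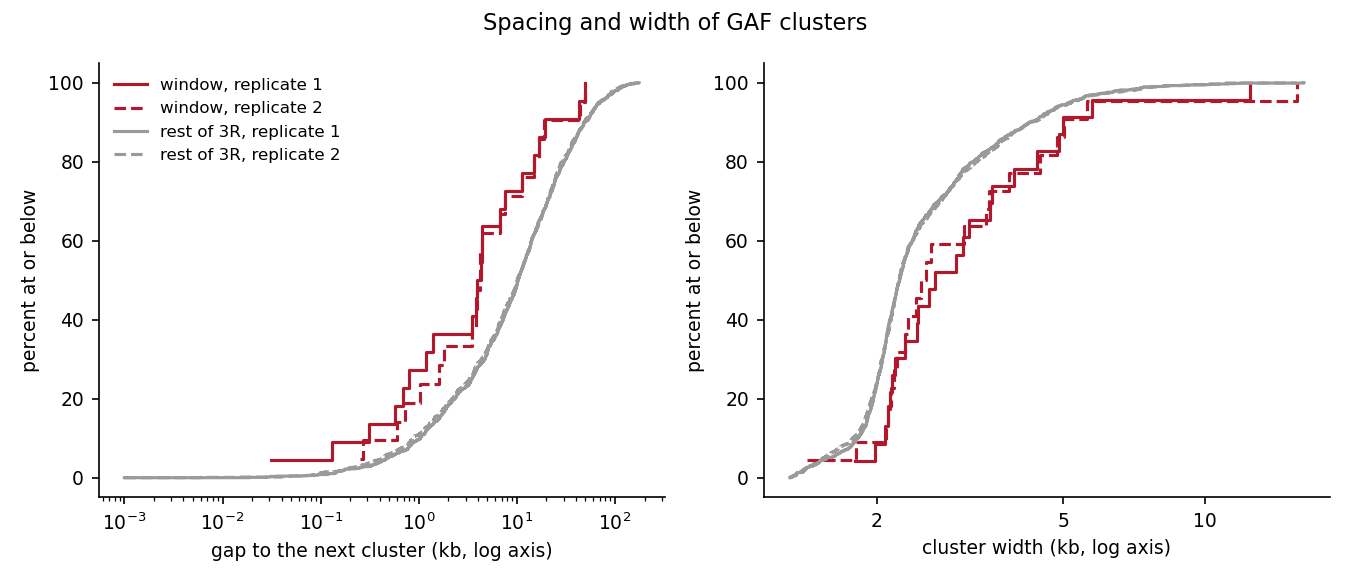
Cumulative percent of gaps (left) and of cluster widths (right) at or below each length in kb on log axes, in the window and the rest of 3R, for both replicates (a gap of 0 bp is drawn as 1 bp). The window's gaps are shorter, with a median of 4178 bp against 10174 bp, and its widths slightly larger, with a median of 2587 bp against 2232 bp.

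Width and score went together less closely in the window. Spearman's rho between them was 0.441 for replicate 1, 0.525 for replicate 2 and 0.554 for the combined list, over 23, 22 and 23 clusters of shared libraries, against 0.815, 0.824 and 0.823 over the rest of 3R. These are descriptions across clusters, and their difference was not tested. The 2 highest-scoring clusters, at percentiles 98.8 and 98.6 of the score on the rest of 3R, lay at percentiles 68.9 and 63.4 of the width. Conversely, the weak cluster from 17305756 to 17309197 was wider than 82.0% of the others. The cluster of 16.0 kb was high in both, at percentile 99.9 of the width and 88.8 of the score (rank 164 of 1437 on 3R).

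**Figure D4:**
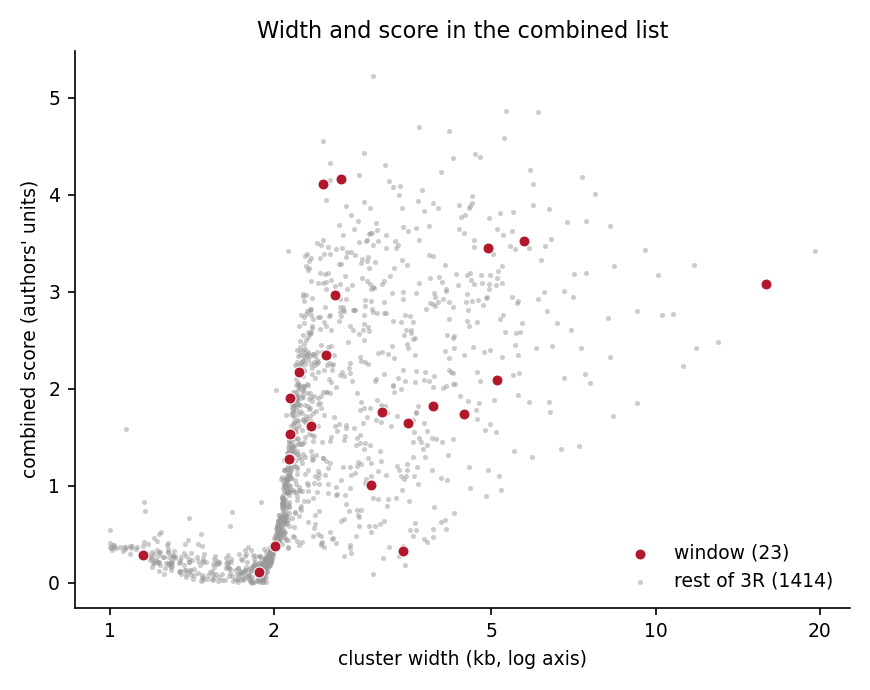
Cluster width in kb (x axis, log) against combined score (y axis, authors' units) for the 23 clusters of the window and the 1414 of the rest of 3R. The 2 highest-scoring members are 2.66 and 2.45 kb wide, and the widest, at 16.0 kb, scores 3.08.

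With all clusters counted, every cluster of one replicate in the window was found in the other. All 23 clusters of replicate 1 overlapped one of replicate 2 by at least 1 bp (100%, exact interval 85.2 to 100%), where the rest of 3R had 93.6%. All 22 of replicate 2 overlapped one of replicate 1 (100%, exact interval 84.6 to 100%), where the rest of 3R had 91.1%. Intervals are Clopper-Pearson at 95% and cover counting error only. Neighbouring clusters of the same libraries are not replicates, and the difference from the arm was not tested. When only clusters scoring no less than their list's median were kept in both lists, 15 of 17 had a counterpart in each direction (88.2%). The rest of 3R then had 94.2% for replicate 1 and 92.0% for replicate 2, so the order of window and arm turned round. The window's unmatched clusters had partners that fell below the other list's limit, 1.31 in replicate 1 and 1.37 in replicate 2. Those partners scored 1.18 and 1.07 in replicate 2, and 0.981 and 0.829 in replicate 1.

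Of the 23 combined clusters, 22 were overlapped by both replicates (95.7%, exact interval 78.1 to 99.9%), where the rest of 3R had 81.8%. With the same score limit it was 15 of 18 (83.3%), where the rest of 3R had 81.8%. Among all 23, the exception was the cluster from 17419439 to 17420587, which neither replicate listed. It was 1149 bp wide, narrower than all but 1.56% of the other combined clusters of 3R, and scored 0.287. On the rest of 3R, 7.64% of combined clusters were found in neither replicate. All 23 clusters of replicate 1 and all 22 of replicate 2 in the window overlapped a combined cluster, where the rest of 3R had 98.2% in replicate 1 and 97.6% in replicate 2.

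Replicate scores were further apart in the window than elsewhere by some measures, a difference that was not tested. Over 21 clusters paired 1 to 1, the median difference of replicate 1 minus replicate 2 was 0.03, and over the other 1143 pairs of 3R it was -0.05. The within-cluster SD was 0.258 in the window and 0.200 on the rest of the arm (n = 2 scores per cluster). The median absolute difference was nearly alike, at 0.182 against 0.166. The largest was smaller in the window, at 0.968 against 1.33, over far fewer pairs. That window pair, at the cluster from 17423346 to 17426502, weighs most in the window's within-cluster SD. Replicate 2 was higher at 9 of the 21 pairs, where the rest of 3R had 58.8%. Pearson's r across pairs was 0.947 and Spearman's rho 0.853, against 0.971 and 0.961 on the rest of 3R, given as descriptions over clusters of the same 2 libraries. The edges of paired clusters were placed alike, with a median shift between replicates of 28 bp at the start and 24 bp at the end, against 26 and 27 bp on the rest of the arm.

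**Figure D5:**
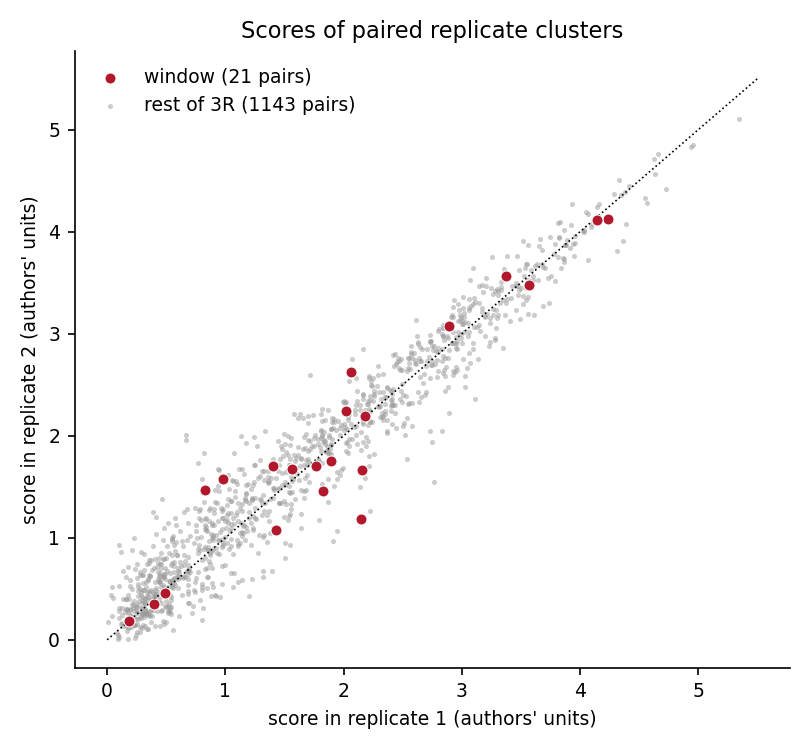
Score in replicate 1 (x axis) against score in replicate 2 (y axis) for the 21 paired clusters of the window and the 1143 of the rest of 3R, with the line of equal scores dotted. The 2 strongest members lie near the line at scores above 4, and the member farthest from it has 2.15 in replicate 1 and 1.18 in replicate 2.

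No depleted region, which has a score below 0, overlapped the window in any list. On all of 3R the combined list had 46 such regions, replicate 1 had 3 and replicate 2 had 0.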

How the data were processed

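GAF ChIP-seq of whole embryos was read from 3 region lists in GFF3, 1 per ChIP replicate and 1 combined. The score of each region is the authors' own deposited value, and its scale is not stated. Coordinates are on FlyBase release 5, per the file headers. Bowtie 0.12.7 is named in the submitters' processing notes. The region caller, its thresholds and the way the replicates were combined are not stated in the files or labels used. The lists hold no read counts, so depth is unknown.

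Clusters were regions with a score above 0. Overlap meant at least 1 shared bp. Gaps were counted edge to edge between neighbours, and the 2 gaps across the window's ends were left out. The background was all other clusters of 3R. Percentiles give the percent of those with a lower value. Shares have exact Clopper-Pearson intervals of 95%. With 1 group of 2 ChIP libraries no test between groups could be made, and no p-value is given. The counting routines were tested on simulated regions. Python 3.11.15, numpy 2.4.6 and scipy 1.17.1 were used.

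The window, the genes and the lists were chosen with earlier results of these data known. All combined clusters of the window are named, since there were no more than 25. Promoter motifs and protein identities had been planned and were not computed, since no sequences were at hand. Alternatives were clusters scoring no less than their list's median, clusters wholly inside the window, a window wider by 50 kb at each end, a reciprocal overlap of 50%, each replicate alone, the 5 large arms as background and tiles of 100 kb.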

Additional observations from a re-analysis of the deposited data

How the results depend on the processing

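When clusters scoring below their list's median were dropped, 17 clusters were left in each replicate. The covered share was then 21.7%, the median score 2.17 and the median gap 6117 bp, against 26.3%, 1.80 and 4178 bp with all clusters. This follows from dropping low scores. Of the clusters kept, 88.2% of each replicate had a counterpart among those kept in the other, against 100% with all clusters. Kept clusters of both replicates overlapped 83.3% of the combined clusters kept, against 95.7% with all clusters. With the window widened by 50 kb at each end, the mean count rose only from 22.5 to 24.5 clusters. The covered share was then 21.1% and the median width 2684 bp, so density and covered share depended on the window's edges. The combined list gave 27.2% covered and a median gap of 3836 bp. With 1 replicate left out at a time, the window held 22 to 23 clusters and 26.0 to 26.5% was covered. The median width was then 2520 to 2655 bp, the median score 1.71 to 1.89 and the median gap 4114 to 4242 bp. Taking only clusters wholly inside the window changed no value. A reciprocal overlap of 50% left 95.7% of replicate 1 clusters with a counterpart, and the 5 large arms as background gave a median gap of 9618 bp. No paired analysis was possible because the input libraries, which share the replicate numbers, were not analysed here. The unknown depth and the 2 libraries limit the precision of every value.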

Other observations

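At 5 of the 21 combined clusters of the window with a single partner in each replicate, the combined score was lower than both replicate scores, and at none was it higher than both. On the rest of 3R it lay outside the range of the replicate scores at 20.5% of 1130 such clusters, and at all 232 of these it was lower. The weakest member, from 17265227 to 17267105, had 0.109 in the combined list against 0.185 and 0.182 in replicates 1 and 2.

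The window's later end cut off the last cluster of the run of 12 combined clusters, 11 of which lay in the window. The cluster from 17173621 to 17176420, with a combined score of 2.81, ended 3580 bp before the window, whose first member began 21060 bp inside it. At the other end the last member stopped 313 bp short of the end. The next cluster, from 17480646 to 17483682 with a score of 0.870, began 646 bp beyond the end and was the last of that run.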
